A study of Mus musculus with 2 samples.

Results

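The 10 genes described here, *Dcx*, *Map2*, *Mapt*, *Stmn2*, *Elavl3*, *Elavl4*, *Nefl*, *Nefm*, *Ina* and *Gap43*, are early neuronal differentiation genes that were chosen by symbol for their place in the differentiation of neurons. All 10 were found among the 29311 genes of the expression tables, of which 19620 are protein-coding, with *Map2* entered under its older name *Mtap2*. They were compared between 1 sample of mouse embryonic stem (ES) cells and 1 sample of embryonic forebrain. The ES cells were of the E14 line and wild type. The forebrain came from wild-type B6CBAF1/J embryos at E10.5, and by the study's methods its RNA was taken from individual embryos without pooling. The strain therefore differed along with the cell type, and what each contributed cannot be told apart. A dissected forebrain holds progenitors, neurons, vessels, blood and surrounding mesenchyme, so in a bulk sample fewer cells of a type and less RNA per cell cannot be told apart.

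Neurons are born when progenitors next to the ventricle leave the cell cycle, after which they switch on a cytoskeleton suited to migration and to the growth of an axon. Doublecortin (*Dcx*), MAP2 and tau (*Mapt*) bind and stabilize microtubules, whereas stathmin 2 (*Stmn2*, also called SCG10) sequesters tubulin and keeps microtubules dynamic. HuC (*Elavl3*) and HuD (*Elavl4*) are RNA-binding proteins that stabilize neuronal transcripts. The light and medium neurofilament subunits (*Nefl*, *Nefm*) and alpha-internexin (*Ina*) build the intermediate filaments of axons, and GAP-43 is a membrane protein of the growth cone. In cells outside the nervous system many such genes are held silent by the repressor REST, which binds an element called RE1. At the stage sampled here most forebrain cells are still progenitors and neurogenesis has only begun.

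RE1-like elements near the starts of these genes are shown first, since REST is the best known regulator of the family of genes studied here. The core, CAGCACC and GGACAG with 2 free bases (NN) between them, was searched on both strands within 5 kb of the most upstream annotated start. It was found at 3 of the 10 genes, compared with 0.663% of the 19620 listed protein-coding genes and 0.542% of all listed genes. When 1 of the 13 fixed letters was allowed to differ, 5 of the 10 genes held it, compared with 4.99% of protein-coding genes. In the sequences below (NCBIM37, 5′ to 3′ on the strand of the element), capitals mark the fixed letters of the core and lower case marks its free positions and 3 flanking bases on each side. The elements of *Stmn2*, *Nefm* and *Ina* carry the exact core and those of *Elavl3* and *Nefl* differ from it at 1 letter.
Stmn2: tttCAGCACCacGGACAGcgc
Nefm: cggCAGCACCaaGGACAGcgc
Ina: gatCAGCACCtcGGACAGcgc
Elavl3: cttCAGCACCacAGACAGcgg
Nefl: tctCAGAACCatGGACAGaag

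The element of *Stmn2* lies at chr3:8508229-8508249 on the plus strand and at -1288 bases from the start, which is upstream. That of *Nefm* lies at chr14:68743780-68743800 on the plus strand, also upstream at -887. That of *Ina* is intronic, at chr19:47091166-47091186 on the minus strand, 1988 bases downstream of the start. The imperfect elements lie upstream, that of *Elavl3* at chr9:21858313-21858333 on the plus strand and that of *Nefl* at chr14:68698543-68698563 on the plus strand. No such element was found in these windows of *Dcx*, *Map2*, *Mapt*, *Elavl4* and *Gap43*, which says only that these letters are not there. A match is a description of sequence, and binding of REST was not measured. By the deposited values *Stmn2* and *Nefm* were higher in ES cells and *Ina* in the forebrain. The differences of *Nefm* and *Ina* are uncertain for overlaps given below, and a relation of the element to direction was not tested.

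Expression is given as RPKM, reads per kilobase of exon with a scaling per sample, as deposited by the authors. The low values show what a single read contributed, and from this 42742935 reads were inferred to lie on the listed genes for the ES cells and 59772985 for the forebrain. Intervals are exact 95% intervals on these inferred reads and cover counting error only. With 1 sample per cell type no test was made and no p-value is given. Differences are given as log2 ratios of RPKM + 1, E10.5 forebrain over ES cells, a scale that understates the change of low genes, and a gene is counted as different when it is at least 4-fold apart on this scale. The labels of both samples were checked with markers. All 8 pluripotency genes were at least 4-fold higher in ES cells and 7 of 8 listed neuroepithelial genes were at least 4-fold higher in E10.5 forebrain. The remaining one, *Sox2*, is used by both cell types and had an RPKM of 7182 in ES cells and 2602 in the forebrain.

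The 10 genes did not move together. There were 7 genes with a higher value in E10.5 forebrain and 3 (*Stmn2*, *Nefl* and *Nefm*) with a higher value in ES cells, where 49.4% of all listed genes and 44.8% of protein-coding genes were higher. At least a 4-fold difference was found for 6 genes in favour of E10.5 forebrain (*Dcx*, *Elavl4*, *Gap43*, *Map2*, *Elavl3* and *Ina*), where 14.4% of all listed genes and 15.6% of protein-coding genes passed the same limit. In the opposite direction only *Stmn2* passed among the 10, compared with 11.3% of all listed genes and 8.93% of protein-coding genes. The median log2 ratio was 3.36 over the 10 genes and 0.013 over all listed genes. A 16-fold difference in favour of E10.5 forebrain was reached by 5 of the 10 genes and by 5.03% of all listed genes. All 10 had reads in both samples, from 583 to 11747 reads per gene in E10.5 forebrain and from 2 to 10767 reads in ES cells.

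**Figure D1:**
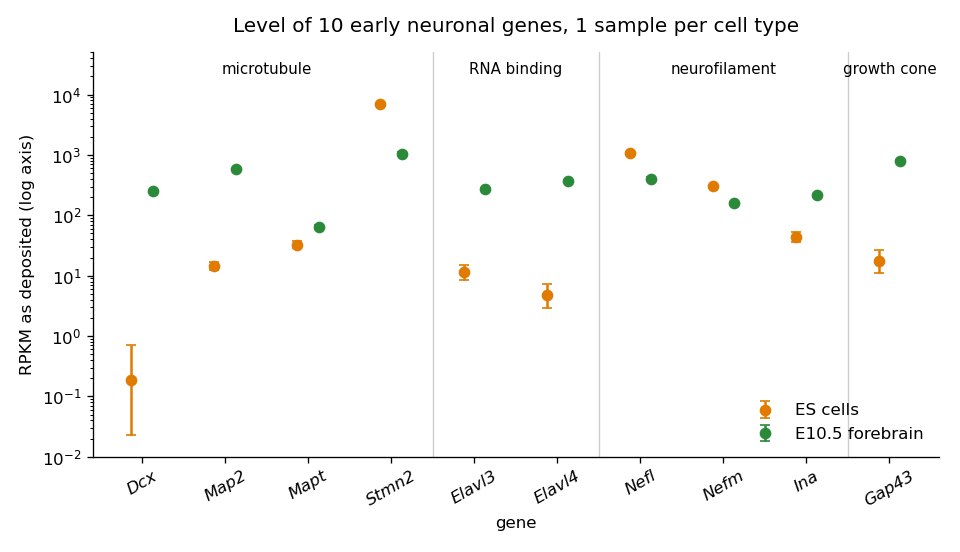
RPKM as deposited (log axis) of each gene in ES cells (orange) and E10.5 forebrain (green), 1 sample each, with bars for exact 95% intervals on inferred reads (counting error only). The forebrain values lie between 63.4 and 1056, whereas the ES cell values extend from 0.19 for *Dcx* to 6910 for *Stmn2*.

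The levels were spread far more widely in ES cells. The SD of log2(RPKM + 1) across the 10 genes was 3.72 in ES cells and 1.18 in the forebrain. In E10.5 forebrain 9 of the 10 genes lay above the median of protein-coding genes (RPKM of 124) by the deposited values, with *Mapt* below it. Of these 9, *Nefm* and *Ina* would fall below it, at 80.8 and 84.1, if evenly spread reads of overlapping genes were taken off. In ES cells only 3 of the 10, again *Stmn2*, *Nefl* and *Nefm*, lay above that median (RPKM of 79.97). These 3 held 98.5% of the summed RPKM of the 10 genes in ES cells, and *Stmn2* alone held 82.2%. Owing to *Stmn2*, the sum over the 10 genes was higher in ES cells, at 8405 compared with 4182. Without *Stmn2* the sums were 1494 in ES cells and 3126 in the forebrain. In ES cells the order of levels was *Stmn2*, *Nefl*, *Nefm*, *Ina*, *Mapt*, *Gap43*, *Map2*, *Elavl3*, *Elavl4* and *Dcx*. Neighbours whose counting intervals overlapped in this order were *Ina* and *Mapt*, *Gap43* and *Map2*, and *Map2* and *Elavl3*. In E10.5 forebrain the order was *Stmn2*, *Gap43*, *Map2*, *Nefl*, *Elavl4*, *Elavl3*, *Dcx*, *Ina*, *Nefm* and *Mapt*. There the intervals overlapped for *Nefl* and *Elavl4* and for *Elavl3* and *Dcx*. By RPKM over all annotated exons, *Stmn2* was thus the highest of the 10 genes in both samples. These orders depend on the length used, as the exons of *Map2* cover 16447 bp but its longest transcript only 6258 bp. For *Stmn2* both lengths are 1904 bp. The places of *Nefm* and *Ina* are also uncertain, for the overlaps given below.

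**Figure D2:**
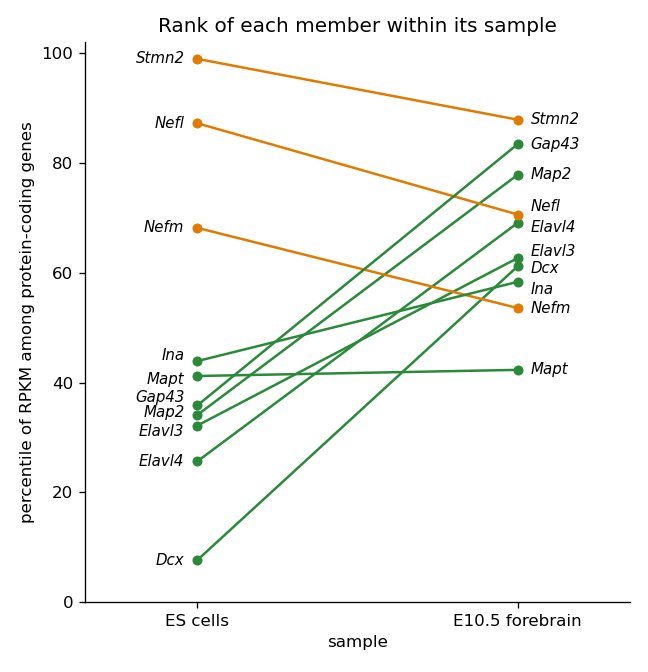
Percentile of the RPKM of each gene among the 19620 listed protein-coding genes, in ES cells (left) and E10.5 forebrain (right), with green lines for genes of higher percentile in E10.5 forebrain and orange lines for the others. *Stmn2*, *Nefl* and *Nefm* start at percentiles 99.0, 87.3 and 68.2 and are lower in E10.5 forebrain, while *Dcx* goes from 7.64 to 61.2.

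Among the microtubule genes, *Dcx* had the largest difference of the 10 genes. *Dcx*, an X-linked gene of migrating neurons (chromosome X, 140290385 to 140367854, minus strand, NCBIM37), had an RPKM of 0.19 in ES cells and 253 in the forebrain. These values rest on 2 and 3909 reads, so that the ES cell value lies below the 0.29 that 3 reads would give. The plain ratio was 1332-fold with a counting interval of 362 to 10824, and the log2 ratio of RPKM + 1 was 7.74. *Dcx* was therefore barely detected in ES cells, and 68 protein-coding genes had a higher log2 ratio.

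*Map2*, which marks dendrites of maturing neurons (chromosome 1, 66221847 to 66489157, plus strand), had an RPKM of 14.5 in ES cells and 585 in the forebrain. The difference was 40.4-fold (35.1 to 46.8), from 195 and 11747 reads, and *Map2* thus had the most reads of the 10 genes in E10.5 forebrain. The annotated exons of *Map2* cover 16447 bp whereas its longest annotated transcript has 6258 bp, so an RPKM on all exons is low relative to one per transcript. *Mapt* (chromosome 11, 104092704 to 104193404, plus strand), by contrast, had 32.6 in ES cells and 63.4 in the forebrain. Its difference of 1.95-fold (1.65 to 2.29) did not reach the limit of 4-fold. Tau transcripts were the least abundant of the 10 in E10.5 forebrain, and *Map2* exceeded *Mapt* 9.23-fold there but only reached 0.444 times its RPKM in ES cells.

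*Stmn2* (chromosome 3, 8509527 to 8561604, plus strand) had an RPKM of 6910 in ES cells and 1056 in the forebrain. It was 6.54-fold higher in ES cells (6.26 to 6.84), from 10767 and 2455 reads. In ES cells *Stmn2* was the protein-coding gene of rank 197 out of 19620, and in E10.5 forebrain of rank 2373. The gene thus stood among the most abundant transcripts of ES cells, although it is best known as a marker of neurons. Other neuronal genes had both high and low levels in the same ES cell library. The RPKM there was 1310 for *Stmn3*, 795 for the neuronal tubulin gene *Tubb3* and 187 for *Elavl2*, but *Dcx* had 2 reads and *Stmn4* 0 reads. In the forebrain the RPKM was 1235 for *Stmn3*, 3318 for *Tubb3*, 367 for *Elavl2*, 253 for *Dcx* and 256 for *Stmn4*. No other listed gene overlaps *Stmn2*, and no stretch of at least 100 bp of its transcript had a copy of at least 95% identity elsewhere in the genome. The latter also held for the longest coding transcripts of the other 9 genes.

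The pair of RNA-binding genes moved in the same direction. *Elavl3* (chromosome 9, 21819449 to 21856467, minus strand) had an RPKM of 11.4 in ES cells and 273 in the forebrain, a difference of 23.9-fold (17.9 to 32.6) from 47 and 1675 reads. *Elavl4* (chromosome 4, 109876327 to 110024514, minus strand) had 4.87 in ES cells and 376 in the forebrain, a difference of 77.3-fold (51.6 to 128) from 21 and 2475 reads. The order of both genes differed between the samples, since the RPKM of *Elavl4* was 0.427 times that of *Elavl3* in ES cells and 1.38 times in E10.5 forebrain.

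*Gap43*, the growth cone gene (chromosome 16, 42248555 to 42340764, minus strand), had an RPKM of 17.6 in ES cells and 795 in the forebrain. The difference was 45.1-fold (29.7 to 72.1), from 22 and 1479 reads. By RPKM over all annotated exons, *Gap43* was second only to *Stmn2* among the 10 genes in E10.5 forebrain, at percentile 83.5 of protein-coding genes.

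The neurofilament genes were split. *Nefl* (chromosome 14, 68701920 to 68707152, plus strand) had an RPKM of 1068 in ES cells and 407 in the forebrain, 2.62-fold higher in ES cells (2.47 to 2.79), from 2953 and 1680 reads. *Nefm* (chromosome 14, 68700647 to 68742903, minus strand) had 302 in ES cells and 159 in the forebrain, 1.90-fold higher in ES cells (1.76 to 2.06), from 1429 and 1121 reads. Neither passed the limit of 4-fold. *Ina* (chromosome 19, 47089188 to 47099817, plus strand) had 43.7 in ES cells and 213 in the forebrain, 4.88-fold higher in E10.5 forebrain (4.01 to 5.97), from 116 and 843 reads. In ES cells the RPKM of *Nefl* was 24.4 times that of *Ina*, compared with 1.91 times in E10.5 forebrain. The ratio of *Nefl* to *Nefm* was closer between the samples, at 3.53 in ES cells and 2.56 in the forebrain.

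These filament genes overlap other genes on the opposite strand. The libraries were prepared with a strand-specific kit, but the deposited values appeared not to separate the strands at such places. Over gene pairs in which at least 90% of the exons of a gene lie inside exons of a gene on the opposite strand with an RPKM of at least 100, the median of the inner gene was 112% of the outer one in ES cells (73 pairs) and 122% in E10.5 forebrain (84 pairs). For such pairs on the same strand the median was 50.4% in ES cells (47 pairs) and 75% in E10.5 forebrain (61 pairs). A long annotated transcript of *Nefm* shares 1108 bp of exon with *Nefl*. If the reads of *Nefl* were spread evenly, 968 of the 1429 reads of *Nefm* in ES cells and 551 of its 1121 reads in the forebrain would lie there. Without them *Nefm* would have an RPKM of 97.4 in ES cells and 80.8 in the forebrain, 1.21-fold apart, so its level and difference are uncertain. For *Nefl* the corresponding share was small, at 274 of 2953 reads in ES cells and 215 of 1680 in the forebrain, and its difference would be 2.73-fold. *Ina* shares 456 bp with *Nt5c2*, a nucleotidase gene with an RPKM of 593 in ES cells and 917 in the forebrain. Evenly spread, *Nt5c2* would give 221 reads there in ES cells, more than the 116 reads of *Ina*, and 511 of 843 in E10.5 forebrain. An even spread that ignores strand thus does not hold for *Ina* in ES cells. How many of its reads come from *Nt5c2* is not known, and its 4.88-fold difference is uncertain as well. The other members shared at most 0.754% of their exonic bases, that is *Map2* with a non-coding RNA, or none.

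**Figure D3:**
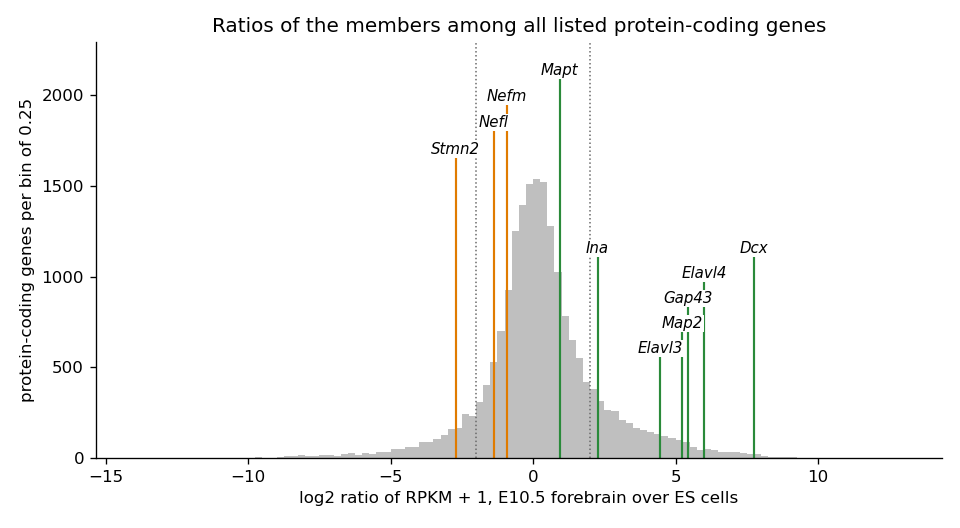
Number of listed protein-coding genes per bin of 0.25 of the log2 ratio of RPKM + 1 (E10.5 forebrain over ES cells, grey), with lines at the ratios of the 10 genes (green above 0, orange below) and dotted lines at 4-fold, where the height of a line has no meaning. *Mapt*, *Nefm* and *Nefl* lie inside the dotted lines, *Stmn2* below at -2.71 and the other 6 above, up to 7.74 for *Dcx*.

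How common such patterns were among other genes differed between members. Genes were counted within a straight-line (Euclidean) distance of 1 log2 unit over the levels in both samples. By this measure 47 other protein-coding genes were found around *Stmn2*, 85 around *Gap43*, 105 around *Elavl4* and 106 around *Dcx*. By contrast, 1251 lay around *Nefm*, 1127 around *Nefl* and 753 around *Mapt*. The medians of the 10 genes, taken in each sample apart, correspond to an RPKM of 24.0 in ES cells and 321 in the forebrain. None of the 10 genes lay at the point that these form, so genes near it need not resemble any of them. Nearest to this point on the log2 scale over the 2 samples were *Tek*, *Slc43a3*, *Gm9851*, *Itprip* and *Eif4g3*, at distances of 0.101, 0.102, 0.158, 0.161 and 0.188 log2 units.

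Next, the 10 genes were set beside their closest relatives. In the stathmin family, which binds free tubulin, *Stmn2* was the only one of 4 genes at least 4-fold higher in ES cells. *Stmn1*, the stathmin of dividing cells, had an RPKM of 3084 in ES cells and 5351 in the forebrain, and *Stmn3* had 1310 and 1235, respectively. *Stmn4* had 0 reads in ES cells and an RPKM of 256 in the forebrain, at least 134-fold higher with 3 reads taken as the floor in the ES cell library. As a result *Stmn2* exceeded *Stmn1* 2.24-fold in ES cells and amounted to 0.197 times *Stmn1* in E10.5 forebrain.

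In the ELAV family the difference was large for the pair of members and small for the other two. The widely expressed *Elavl1* (HuR) had an RPKM of 1187 in ES cells and 1586 in the forebrain, and *Elavl2* (HuB), found in neurons and germ cells, had 187 and 367, respectively. *Elavl1* exceeded *Elavl4* 244-fold in ES cells and 4.22-fold in E10.5 forebrain. In the doublecortin family, *Dclk1* had 7.90 in ES cells and 205 in the forebrain, a 25.9-fold difference (21.0 to 32.6) in the direction of *Dcx*. *Dclk2* differed by 1.18-fold (1.10 to 1.26), and *Dclk3* was 13.8-fold higher in ES cells (7.13 to 29.6), with an RPKM of 32.3 and 2.34, respectively. A 4-fold difference thus occurred in both directions within this family.

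Of the 5 other structural microtubule-associated proteins, only *Map1b* passed the limit of 4-fold. *Map1b*, an early axonal protein, had an RPKM of 165 in ES cells and 1841 in the forebrain, an 11.1-fold difference (10.6 to 11.7). It exceeded *Map2* 11.4-fold in ES cells and 3.15-fold in E10.5 forebrain. *Map1a* and *Map6*, better known from mature neurons, differed by 2.38-fold and 2.56-fold in favour of E10.5 forebrain, near the 1.95-fold of *Mapt*. The ubiquitous *Map4* differed by 0.976 times, with an interval of 0.935 to 1.02 that includes no difference, though 24.5% of its exonic bases are shared with other entries, and *Map1s* was 1.49-fold higher in ES cells.

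Of the 4 other filament genes, *Nefh* and *Prph* were higher in ES cells, and *Nes* and *Vim* in E10.5 forebrain. *Nefh*, the heavy neurofilament subunit of mature axons, had an RPKM of 142 in ES cells and 3.21 in the forebrain, 44.4-fold apart (26.5 to 76.6). *Prph*, a filament gene of peripheral neurons, had 129 and 8.56, respectively, 15.1-fold apart (9.64 to 26.2). Both share 0 exonic bases with other listed genes. The ES cell sample thus held transcripts of *Nefl*, *Nefh* and *Prph* above the forebrain level. The deposited values put *Nefm* above that level as well and *Ina* below it, but both differences are uncertain for the overlaps given above. The progenitor filament gene *Nes* was 22.6-fold higher in E10.5 forebrain (21.2 to 24.1) and *Vim* 1.53-fold.

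Among the 8 other growth cone genes, 7 were at least 4-fold higher in E10.5 forebrain and 0 in ES cells, with a median log2 ratio of 3.34. *Dpysl4*, a collapsin response mediator protein, had an RPKM of 2.55 in ES cells and 667 in the forebrain, a 262-fold difference (156 to 527). *Dpysl2* (CRMP2) had 181 and 5876, and *Marcks*, a membrane protein kinase C substrate, had 323 and 8510. *Marcksl1* was below the limit, with a 3.38-fold difference. *Gap43* was thus in the direction of every other gene in this list. Its forebrain level was below those of *Dpysl2*, *Dpysl3*, *Marcks*, *Marcksl1*, *Basp1* and *Crmp1* and above those of *Dpysl4* and *Dpysl5*.

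**Figure D4:**
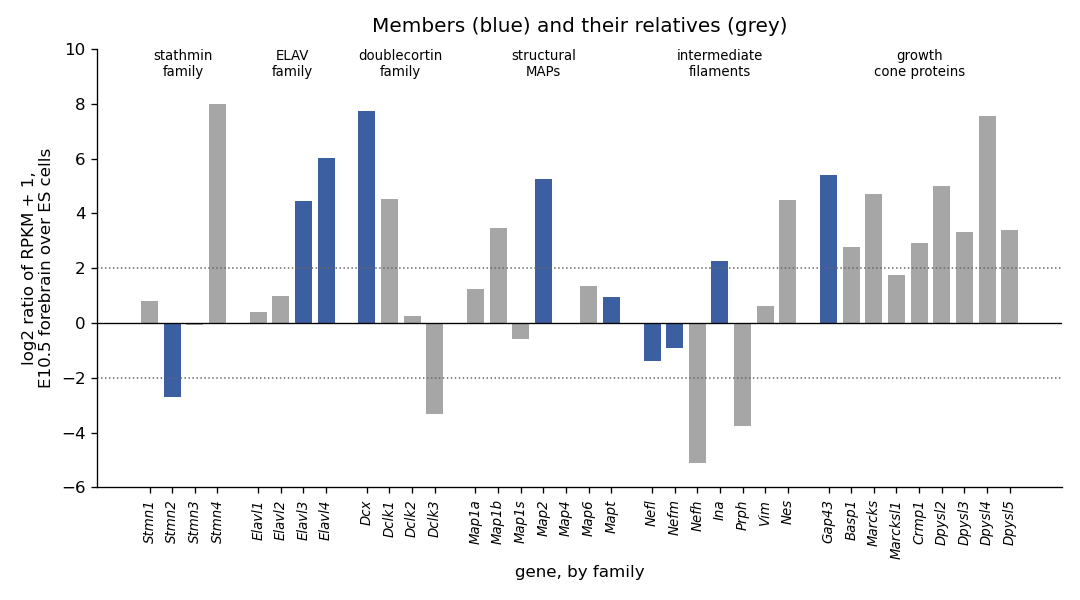
Bars of the log2 ratio of RPKM + 1 (E10.5 forebrain over ES cells) for the 10 genes (blue) and their relatives (grey), grouped by family, with dotted lines at 4-fold. *Stmn2*, *Nefl*, *Nefm*, *Nefh*, *Prph* and *Dclk3* point toward ES cells, as does *Map1s* (-0.57), with *Stmn3* (-0.08) and *Map4* (-0.04) close to 0, whereas every bar among the growth cone proteins points toward E10.5 forebrain.

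Other genes of new neurons were mostly higher in E10.5 forebrain. Of 19 such genes, 15 were at least 4-fold higher in E10.5 forebrain and 0 in ES cells, with a median log2 ratio of 3.63, near the 3.36 of the 10 genes. The largest ratios were those of *Myt1*, *Ebf3* and *Nhlh2*, all transcription factor genes, of which *Nhlh2* had an RPKM of 0.73 in ES cells and 290 in the forebrain. *Myt1* and *Ebf3* had 0 reads in ES cells and were at least 791-fold and 427-fold higher in the forebrain. The smallest were those of *Chga*, a granule protein, with 152 and 77.9, and of the splicing factor gene *Srrm4*, with 42.5 and 40.5. *Stmn2* and *Nefl* had lower log2 ratios than all of these 19 genes. Of 16 synaptic and mature neuron genes, 8 were at least 4-fold higher in E10.5 forebrain and 3 in ES cells. *Slc17a6*, the glutamate transporter VGLUT2, had 0.28 and 149, and the GABA-synthesizing enzymes were split, with 1.19 and 58.2 for *Gad2* and 81.9 and 13.9 for *Gad1*. The lowest log2 ratio of this list was that of *Nefh*, at -5.09.

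*Rest* itself had an RPKM of 2348 in ES cells and 716 in the forebrain, 3.28-fold higher in ES cells (3.18 to 3.38). Of the 10 genes of the REST complex, 1 was at least 4-fold apart, *Rcor3*, which shares 18.9% of its exonic bases with other genes. Of the 3 members with the exact RE1 core, *Stmn2* and *Nefm* had their higher value in the sample with the higher *Rest* level and *Ina* in the other, and the differences of *Nefm* and *Ina* are uncertain for the overlaps given above. Among the 130 listed protein-coding genes with the exact core within 5 kb, 29.2% were at least 4-fold higher in E10.5 forebrain and 9.23% in ES cells, compared with 15.5% and 8.93% of the genes without it.

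The starts of the 10 genes differed in base composition. In the window from 250 bases upstream to 50 bases downstream of the most upstream annotated start, the ratio of observed to expected CpG dinucleotides was 0.614 at the median of protein-coding genes. *Dcx* had the lowest value of the 10, 0.299 with 3 CpG, and *Stmn2* the next, 0.356 with 7 CpG. The other 8 genes lay between 0.684 for *Nefm* and 0.975 for *Mapt*. By count, *Gap43* also had 7 CpG, at a ratio of 0.732. The 2 genes with the lowest ratios were the lowest and the highest of the 10 in ES cells. A relation of CpG content to level was not tested.

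Cells other than those of the neural tube were present in the dissected tissue. Summed RPKM went from 373 in ES cells to 799065 in E10.5 forebrain over 6 erythroid genes, all 6 at least 4-fold higher, and from 85.1 to 8632 over 7 mesenchymal genes, all 7 at least 4-fold higher. Over 6 endothelial genes the sums were 628 and 2372, with 5 at least 4-fold higher. For 8 genes of peripheral sensory and autonomic neurons, which also use several of the 10 genes, the sums were 206 and 354, and 2 (*Isl1* and *Th*) were at least 4-fold higher in E10.5 forebrain and 1 (*Prph*) in ES cells. None of these markers was listed at 0 in E10.5 forebrain. The part of these cells in the forebrain levels of the 10 genes was not tested.

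**Figure D5:**
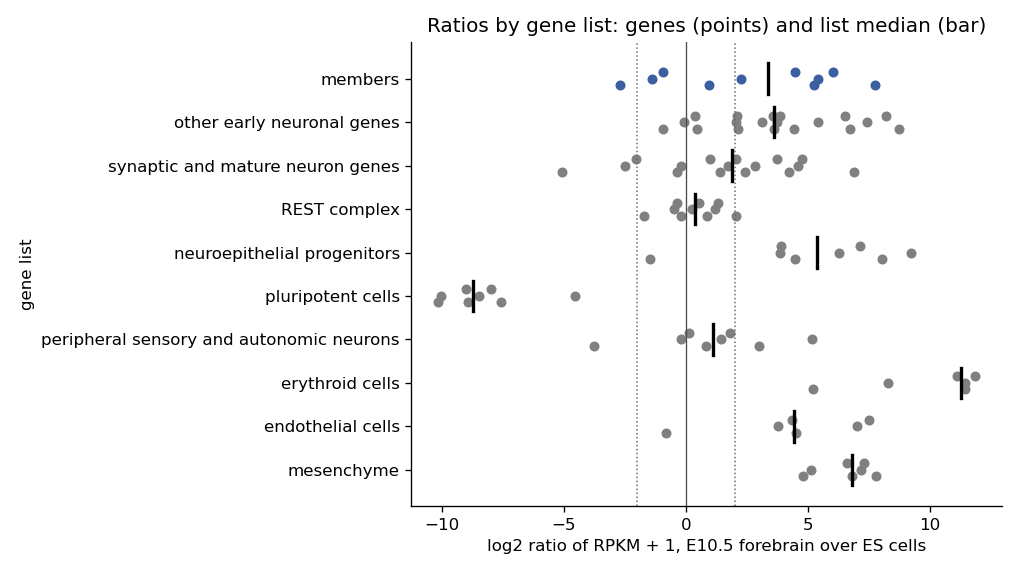
Log2 ratio of RPKM + 1 (E10.5 forebrain over ES cells) of each gene (points) by list, with black bars at list medians, dotted lines at 4-fold and vertical offsets only for legibility. The 10 members extend from -2.71 to 7.74, on both sides of 0, as do the synaptic and mature neuron genes (-5.09 to 6.87) and the other early neuronal genes (-0.95 to 8.72), while the pluripotency, erythroid and mesenchymal genes each lie on 1 side.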

How the data were processed

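Total RNA of 1 ES cell sample and 1 E10.5 forebrain sample was sequenced after ribosomal RNA depletion, with reads of 50 bp in the study's methods and 100 bp in the labels. Alignment by the authors was to the NCBIM37 (mm9) assembly in the HTSstation pipeline, and Bowtie 0.12.7 is listed in the submitters' processing notes. The deposited tables hold a value per gene called RPKM, whose scaling per sample is not given in the sources used here. All 29311 listed genes had the same coordinates in the GENCODE annotation of that build, and exonic lengths were taken from it.

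RPKM was used as deposited. Multiplied by exonic length in kb, low values of genes of up to 2500 bp were mostly whole multiples of 1.222 in ES cells and 0.8192 in the forebrain (64.0% of 5656 genes and 67.0% of 5417 genes within 0.05 of a whole multiple), which was taken as 1 read. Reads were rounded to whole numbers. Single values carry exact Poisson and ratios exact Clopper-Pearson 95% intervals, and both steps were tested on simulated data. A count of 0 was given a floor of 3 reads. Ratios used a pseudocount of 1. Copies were searched with blastn 2.17.0 and motifs in the NCBIM37 sequence. The scripts ran under Python 3.11.15 with pysam 0.24.0, scipy 1.17.1, numpy 2.4.6, matplotlib 3.10.9 and pandas 2.3.3.

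The members and gene lists were chosen with earlier results of these data known. The genes named are the 10 members, their relatives in 6 families, and at most the 3 largest and 2 smallest ratios of each other list. *Rest* and the 5 genes nearest to the point formed by the members' medians were added. *Nt5c2* and the genes set beside *Stmn2*, *Sox2*, *Isl1*, *Th* and *Rcor3* were named after their values were seen. Members were left out of the counts of other lists. *Sox1* has no entry in the annotation used. Pseudocount, scaling, filter, fold and motif window were varied. RT-qPCR and chromatin data were not analysed here.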

Additional observations from a re-analysis of the deposited data

How the results depend on the processing

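All 10 genes kept their direction under pseudocounts of 0.1 and 5 and under every scaling, where *Stmn2* ranged from -2.80 to -2.44 and *Dcx* from 2.62 to 9.77. The number of the 10 genes at least 4-fold higher in E10.5 forebrain was 5 or 6 under each alternative. Their median log2 ratio was 3.12 to 3.63, except for 1.99 on values per kb and 1000000 inferred reads and 5.24 without *Nefl*, *Nefm* and *Ina*, which share exons with other genes. The former rests on a pseudocount of 1 on values that are much smaller, as a pseudocount lowered in proportion gave 3.45. It also reduced the share of all genes at least 4-fold higher in E10.5 forebrain from 14.4% to 3.55%. With a pseudocount of 5, the share at least 4-fold higher in ES cells was 6.80% in place of 11.3%. Scaling by the sum of RPKM moved the median of all genes to 0.26. Allowing 1 mismatch raised the number of members with the RE1 core from 3 to 5. Taking off reads that *Nefl* would give moved the log2 ratio of *Nefm* from -0.92 to -0.27. The proportional pseudocount, the omission of genes that share exons and the correction of *Nefm* were chosen after seeing the data. No paired analysis was possible because each cell type has 1 sample.

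Depth limits the ES cell side. The RPKM that 3 reads would give ran from 0.223 for *Map2* to 2.41 for *Gap43* in ES cells, and only *Dcx* lay below its floor. Variation between samples of a cell type could not be measured.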
